A study of Mus musculus with 46 samples.

Results

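The nuclear-encoded subunits of the oxidative phosphorylation complexes were followed in 3 RNA-seq experiments on mice whose microglia had been depleted, or depleted and allowed to return. Members were every gene whose symbol starts with Nduf followed by a, b, c, s or v and a digit (complex I), is Sdha, Sdhb, Sdhc or Sdhd (complex II), starts with Uqcr (complex III), starts with Cox followed by a digit from 4 to 8 and a, b or c (complex IV), or starts with Atp5 and a letter (complex V). The rule used symbols only and no measured value. It found 86 symbols, of which 41 belonged to complex I, 4 to complex II, 8 to complex III, 14 to complex IV and 19 to complex V. There were 79 members among 15695 genes in the subventricular zone (SVZ) experiment, 79 among 15285 in the white matter (WM) and LPS experiment and 82 among 19930 in the GLOBAL experiment, and 76 symbols were in all 3. Symbols were taken as each experiment lists them, so a gene listed under an older symbol is not counted there. Atp5mpl was found in the GLOBAL experiment only. Every member in each experiment passed the filter on low values. By symbol, Ndufa4 counts as complex I although it is known as a complex IV subunit, Atp5s and Atp5sl are not subunits of the ATP synthase proper, and Atp5c1-ps and Uqcrh-ps1 are pseudogenes.

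All groups were 2-month-old wild-type C57BL/6 mice, male by the study's methods. The study's legends give this age for mice put on treatment, so mice sampled after recovery were older by then. Depletion used PLX3397, an inhibitor of the receptor CSF1R on which microglia depend, given in chow at 600 ppm. The SVZ experiment measured tissue of the subventricular zone from control mice, mice after 14 days of PLX3397 and mice given 14 days of PLX3397 and 5 days of recovery (n = 5 each). The WM experiment measured CD11b+CD45int cells, the gate that contains microglia, sorted from brain hemispheres of control mice and of mice given 14 days of PLX3397 and 28 days of recovery, whose cells are called WM repopulating after the white matter in which they first reappear. Control cells were taken from mice that received no LPS (0 hr, n = 3) or 6 hr (n = 5) and 24 hr (n = 4) after LPS, a bacterial cell wall product, at 0.33 mg/kg, and WM repopulating cells likewise at 0, 6 and 24 hr (4 libraries at each). The GLOBAL experiment measured sorted cells of control mice (n = 4) and of mice given 7 days of PLX3397 and 28 days of recovery, a schedule after which microglia return throughout the brain (n = 3). The sort takes cells from the whole hemisphere by surface markers, so WM repopulating libraries are not cells dissected from white matter. Resident cells that survived the drug can be among them. The study counted very few such cells after 14 days of PLX3397 and proposes them as the main source of the repopulating cells.

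Oxidative phosphorylation is the final stage of aerobic energy metabolism. Complex I accepts electrons from NADH and complex II (succinate dehydrogenase, also an enzyme of the citric acid cycle) from succinate, complex III passes them to cytochrome c, complex IV (cytochrome c oxidase) hands them to oxygen, and complex V (ATP synthase) uses the proton gradient built on the way to make ATP. Most subunits are encoded in the nucleus and some core subunits in mitochondrial DNA, and macrophages given LPS are known for a shift of energy metabolism towards glycolysis.

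Recovered reads per library were 7588876 to 15034785 in SVZ tissue, 4406064 to 9760603 in the WM experiment and 3093139 to 4953722 in the GLOBAL experiment. The median member had 1764 reads per library in the SVZ, 426.5 in the WM and 176 in the GLOBAL experiment, and 6, 13 and 26 members had a median under 100. The summed level of 12 microglial markers was 19655 to 44406 FPKM (fragments scaled by transcript length and library size) in the sorted WM libraries, with summed neuronal markers at 1.30 to 9.47. In SVZ tissue the microglial sum was 359 to 523 FPKM in control, 13.5 to 17.8 after 14 days of PLX3397 and 27.2 to 42.0 after 5 days of recovery. One control SVZ library (replicate 1) stood apart, with a choroid plexus marker sum of 21672 FPKM against 16 to 130 in the other 14. Neutrophil markers were present in the sorted cells, with sums of 6 genes from 417 to 15120 FPKM in the WM and 1265 to 22592 in the GLOBAL experiment. In bulk libraries such as these, fewer cells of a type and less RNA per cell cannot be told apart.

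Promoters of 7 members are shown first, chosen because each was called in at least 1 comparison and holds motifs of factors known to act at respiratory genes or at promoters in general. Of the 86 members, 68 had a promoter in the RefSeq table (GRCm38.p6). Within 250 bases before the start, on both strands, the NRF1 core GCATGCG was found for 9 of 68 members (13.2%) against 3.43% of 27025 genes, and the ETS core CCGGAAG for 11 (16.2%) against 7.83%. The YY1 core AAGATGG was found for 2 (2.94%) against 5.18%, the CCAAT box for 30 (44.1%) against 37.5% and the TATA box TATAAA for 5 (7.35%) against 14.3%. A match is a description of the letters and not evidence of binding. The 150 bases before the start of 7 members follow 5′ to 3′ on the gene's strand, with these motifs in capitals; Atp5b and Atp5g1 encode the catalytic beta subunit and a membrane ring subunit of ATP synthase, Atp5e and Atp5h its epsilon and d subunits, Ndufa6 and Ndufa8 accessory subunits of complex I and Sdhb the iron-sulfur subunit of complex II.
Atp5b (chr10:128083157-128083306, plus strand): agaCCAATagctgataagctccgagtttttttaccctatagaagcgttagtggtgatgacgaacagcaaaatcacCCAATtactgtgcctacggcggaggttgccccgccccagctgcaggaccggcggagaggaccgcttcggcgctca
Atp5g1 (chr11:96075632-96075781, minus strand): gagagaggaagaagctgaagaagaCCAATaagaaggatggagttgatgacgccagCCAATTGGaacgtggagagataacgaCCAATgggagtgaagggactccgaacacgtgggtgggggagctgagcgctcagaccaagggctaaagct
Atp5e (chr2:174464102-174464251, minus strand): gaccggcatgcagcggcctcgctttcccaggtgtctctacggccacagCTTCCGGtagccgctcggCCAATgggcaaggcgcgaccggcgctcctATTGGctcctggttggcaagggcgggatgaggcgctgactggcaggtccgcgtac
Atp5h (chr11:115419920-115420069, minus strand): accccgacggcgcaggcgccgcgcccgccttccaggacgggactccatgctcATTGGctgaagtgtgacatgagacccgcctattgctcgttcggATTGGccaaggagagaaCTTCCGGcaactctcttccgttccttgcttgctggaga
Ndufa6 (chr15:82354292-82354441, minus strand): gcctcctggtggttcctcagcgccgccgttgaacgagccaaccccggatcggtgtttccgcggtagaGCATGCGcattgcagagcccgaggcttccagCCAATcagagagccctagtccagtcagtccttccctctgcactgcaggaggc
Ndufa8 (chr2:36049339-36049488, minus strand): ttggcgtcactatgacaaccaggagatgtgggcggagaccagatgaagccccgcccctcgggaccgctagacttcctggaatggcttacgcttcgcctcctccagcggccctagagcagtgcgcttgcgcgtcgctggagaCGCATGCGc
Sdhb (chr4:140961121-140961270, plus strand): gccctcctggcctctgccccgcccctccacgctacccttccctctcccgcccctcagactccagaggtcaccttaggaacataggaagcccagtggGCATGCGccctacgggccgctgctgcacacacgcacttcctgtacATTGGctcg
Ndufa8 and Sdhb, together with Ndufa6, hold NRF1 cores, Atp5e and Atp5h hold ETS cores beside CCAAT boxes, and Atp5b and Atp5g1 hold CCAAT boxes in this stretch. In Atp5g1 a pair of CCAAT boxes on opposite strands overlaps, and in Ndufa8 the NRF1 core is matched on both strands by overlapping letters.

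Levels differed widely between the members of each complex. The highest members of complex I were Ndufa4 in SVZ tissue (mean 795 FPKM over all libraries) and Ndufa3 in the WM (279 FPKM) and GLOBAL (133 FPKM) experiments. Sdhb was the highest of complex II in every experiment, at 382, 221 and 87.6 FPKM in the SVZ, WM and GLOBAL experiments. For complex III the highest were Uqcr10 in SVZ tissue (688 FPKM), Uqcrq in the WM experiment (270.3 FPKM) and Uqcrc1 in the GLOBAL experiment (88.9 FPKM). Of the complex IV members, Cox6a1 led in each, at 1025, 390.5 and 226 FPKM. Cox4i1, a complex IV gene that the symbol rule leaves out, was higher in control SVZ, at 1498 FPKM against 1031 for Cox6a1. In control cells at 0 hr Cox4i1 was at 502 FPKM against 357 for Cox6a1. For complex V, Atp5b led in SVZ tissue (1059 FPKM) and the GLOBAL experiment (181 FPKM) and Atp5e in the WM experiment (280.2 FPKM). These means pool all groups of an experiment, and the first place was held by another member in some single groups. For example, in control cells Uqcrc1 and Ndufa2 were above Uqcrq and Ndufa3 at 0 hr and Atp5b was above Atp5e at 6 hr. At 24 hr Ndufa2 (369 FPKM) and Ndufb7 (357 FPKM) were above Ndufa3 (353 FPKM) in control cells. In SVZ tissue after 5 days of recovery Ndufb10 (818 FPKM) was above Ndufa4 (809 FPKM), and in GLOBAL repopulated cells Cox8a was above Cox6a1. Levels can be ordered within an experiment only, since each table was normalised on its own.

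**Figure D1:**
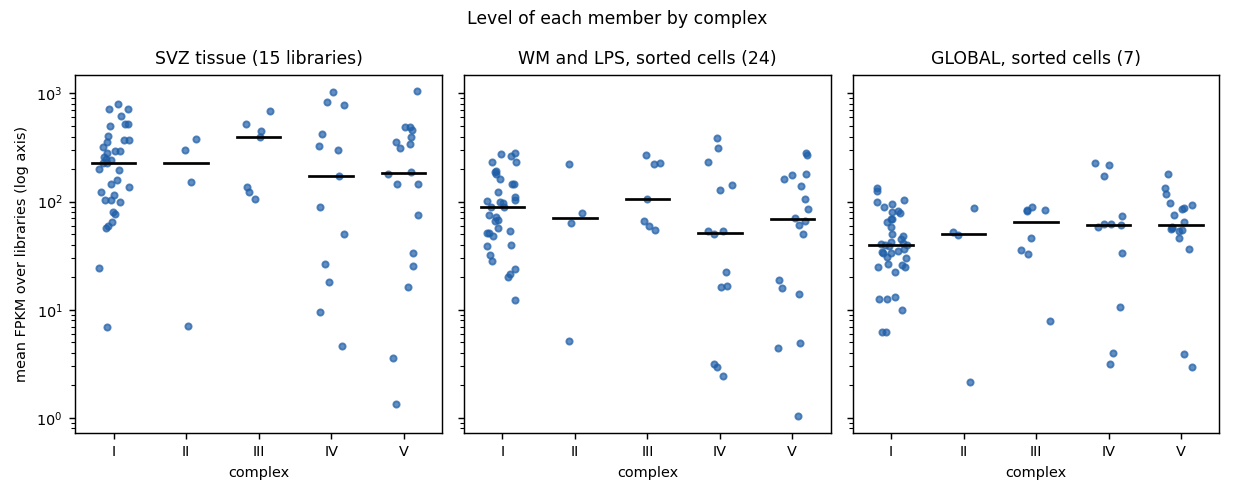
Mean FPKM of each member over all libraries of an experiment (log axis), by complex; each point is a gene and the bar is the median of the complex. Within a complex the members of the WM experiment ran from 5.11 (Sdhd) to 221 (Sdhb) FPKM in complex II and from 1.04 (Atp5g2) to 280.2 (Atp5e) FPKM in complex V.

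The tissue-specific isoforms were low beside the common ones. In control cells at 0 hr, Cox6a1, the isoform of most tissues, stood at 357 ± 14.1 (SD, n = 3) FPKM and Cox6a2, the heart and muscle isoform, at 8.56 ± 1.41 (SD, n = 3). Cox8a and its muscle isoform Cox8b were at 197 ± 12.7 and 3.002 ± 3.81 FPKM, Cox6b1 and its testis isoform Cox6b2 at 247 ± 55.9 and 1.99 ± 2.18, and Cox7a2l, Cox7a2 and the muscle isoform Cox7a1 at 64.9 ± 9.86, 17.4 ± 1.49 and 2.31 ± 1.19. Of the genes for the identical ring subunit of ATP synthase, Atp5g3 was at 43.6 ± 4.32 FPKM, Atp5g1 at 8.99 ± 3.77 and Atp5g2 at 0.701 ± 0.257. In control cells of the GLOBAL experiment Atp5g2 was at 93.8 ± 7.05 (SD, n = 4) FPKM, and 39.0% of its 43-base windows occur in other transcripts, so its low level here is uncertain. Cox8c was not among the members found, and Ndufa4l2, a paralogue of Ndufa4, was found in SVZ tissue only, as the lowest complex I member there (6.92 FPKM).

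Core and catalytic subunits were spread over the range. In control cells at 0 hr the complex I core subunits Ndufs1 and Ndufv1 were at 19.2 ± 2.81 and 51.8 ± 8.26 FPKM. The 4 subunits of complex II were at 67.8 ± 9.87 (Sdha, the flavoprotein), 224 ± 34.5 (Sdhb), 71.8 ± 3.93 (Sdhc) and 6.12 ± 0.792 FPKM (Sdhd), the last 2 being the membrane anchors. The complex III core subunits Uqcrc1 and Uqcrc2 were at 231 ± 42.9 and 51.5 ± 14.7 FPKM, and the Rieske iron-sulfur subunit Uqcrfs1 at 65.8 ± 7.90. The ATP synthase subunits alpha (Atp5a1), beta (Atp5b) and gamma (Atp5c1) were at 150.1 ± 5.52, 216 ± 46.2 and 92.0 ± 3.86 FPKM. Subunits of the same complex thus stood far apart in transcript level, as Sdhb and Sdhd did. Low counts lay behind some of these levels. Sdhd had 26 to 70 reads per library in the WM experiment, Cox6a2 20 to 288, Cox8b 0 to 45 and Atp5g2 2 to 9. Sequence shared with other transcripts makes other levels uncertain, since 85.1% of 43-base windows of Atp5l, 51.7% of Atp5o, 49.1% of Uqcrb, 44.5% of Ndufs3, 40.6% of Atp5f1, 40.4% of Atp5h and 37.1% of Cox5a also occur elsewhere in the transcriptome, against a median of 2.70% over 80 matched members. The window is the read length in the study's methods, the labels give longer reads, and these shares hold for the shorter length only.

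The first LPS question was how control cells changed within 6 hr. Of 79 members, 17 rose and 10 fell between 0 and 6 hr (limma on log2(FPKM + 1), adjusted p under 0.05), against 21.4% of all 12684 tested genes called higher and 21.1% called lower, and the median difference over the members was 0.12 on the log2 scale. In no comparison was the median over all tested genes more than 0.03 from 0. Complex IV and V members rose more often than they fell, with 6 higher and 1 lower of 14 and 5 higher and 2 lower of 18. In complex I, 4 were higher and 7 lower of 36, in complex III 2 were higher of 7, and none of the 4 complex II members was called (median -0.25). With 34.2% of members called, the group was below the share of all genes in both directions together. At 6 hr 9 of 12 microglial and 1 of 6 neutrophil markers were lower and 3 of 4 monocyte markers higher, and their part in these results was not tested.

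Atp5b had 184, 194 and 269 FPKM in the control libraries at 0 hr and 331, 349, 291, 339 and 292 at 6 hr. Every 6 hr library was above every 0 hr library, with a log2 difference of 0.58 ± 0.16 (SE, adjusted p = 0.00471). Atp5g1 went from 13.03, 8.36 and 5.56 FPKM to 17.4, 15.7, 13.1, 17.98 and 15.2, without overlap and with a log2 difference of 0.82 ± 0.23 (SE, adjusted p = 0.00657). With these, the 10 greatest of the 17 members called higher were Atp5g3 (0.60), Ndufb2 (0.55), Ndufb6 (0.51), Cox5b (0.49), Cox7b (0.49), Ndufs4 (0.48), Atp5f1 (0.46) and Cox7a2 (0.43), all as log2 differences.

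Ndufa9, an accessory subunit of complex I that helps anchor its peripheral arm, went the other way, from 139.7, 134 and 121 FPKM at 0 hr to 82.2, 74.4, 76.7, 72.7 and 85.8 at 6 hr. Its groups lay far apart, at a log2 difference of -0.74 ± 0.14 (SE, adjusted p = 0.000127). Atp5s, a factor associated with ATP synthase, had 7.51, 9.68 and 6.08 FPKM at 0 hr and 3.10, 2.53, 2.71, 3.38 and 3.73 at 6 hr, a log2 difference of -1.09 ± 0.21 (SE, adjusted p = 0.000176). It is a low member with 22 to 99 reads per library. Cox7a2l, known for a role in supercomplexes of complexes III and IV, fell from 64.9 ± 9.86 (SD, n = 3) to 40.1 ± 3.20 (SD, n = 5) FPKM, a log2 difference of -0.67 ± 0.15 (SE, adjusted p = 0.000987). The other members that fell were Ndufc2 (-0.54), Ndufv3 (-0.48), Ndufb3 (-0.47), Ndufa7 (-0.45), Ndufa6 (-0.45), Atp5sl (-0.42) and Ndufs7 (-0.31). The count of 27 was 13 without replicate 3 of control 0 hr and 17 without the library of each group with the highest neutrophil sum, and with quantile normalisation the split was 13 higher and 15 lower.

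At 24 hr after LPS the members called in control cells were all higher than at 0 hr. They were 36 of 79, with none lower, against 12.1% of all tested genes higher and 9.23% lower, and the median difference was 0.41. The members called were 14 of 36 in complex I, 3 of 7 in complex III, 9 of 14 in complex IV and 10 of 18 in complex V. Complex II again had none of 4 called (median 0.06). The mean log2 level over the 79 members was 5.88 ± 0.12 (SD, n = 3) at 0 hr, 5.95 ± 0.09 (n = 5) at 6 hr and 6.26 ± 0.15 (n = 4) at 24 hr, and every library at 24 hr was above every library at 0 and 6 hr. Of the microglial markers 9 of 12 were lower at 24 than at 0 hr and of the neutrophil markers 0 of 6 were called, and their part was not tested.

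Cox6a2 showed the greatest log2 difference of the members called. It had 10.2, 7.49 and 8.04 FPKM in the libraries at 0 hr, 8.22, 11.9, 10.9, 15.2 and 11.6 at 6 hr and 31.7, 35.8, 51.4 and 40.8 at 24 hr. The 24 hr libraries were all above the others, at a log2 difference of 2.08 ± 0.32 (SE, adjusted p = 4.58e-05) against 0 hr and a log2 difference of 1.70 ± 0.28 (SE, adjusted p = 7.04e-05) against 6 hr. Uqcrq, a small subunit of complex III, had 207, 202 and 204 FPKM at 0 hr and 302, 396, 279 and 485 at 24 hr, a log2 difference of 0.80 ± 0.15 (SE, adjusted p = 0.000385). Cox5a, a nuclear-encoded subunit of complex IV, had 120.0, 114 and 93.7 FPKM at 0 hr and 185, 193, 173 and 247 at 24 hr, a log2 difference of 0.86 ± 0.15 (SE, adjusted p = 0.000192). Its 24 hr libraries also lay above all 5 libraries at 6 hr, which had 152, 126, 126, 149.6 and 159.5 FPKM.

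Cox5b, a zinc-binding subunit of complex IV, had 42.9, 45.4 and 34.2 FPKM at 0 hr and 70.8, 73.5, 54.2 and 78.6 at 24 hr, a log2 difference of 0.74 ± 0.16 (SE, adjusted p = 0.00205). Ndufb2, an accessory subunit of the membrane arm of complex I, had 83.7, 75.3 and 51.0 FPKM at 0 hr and 119, 126, 111 and 190.4 at 24 hr, a log2 difference of 0.95 ± 0.19 (SE, adjusted p = 0.000974). In both the groups did not overlap, and in each control replicate 4 at 24 hr was the highest library. The other members named by their size were Atp5g1 (1.002), Ndufa12 (0.91), Cox7b (0.87), Cox6b1 (0.77) and Atp5g3 (0.75). Control replicate 4 had the lowest microglial marker sum of its group, 19655 FPKM against 31336 to 33424, and the highest member level, 6.47, and the part of the former in the latter was not tested. The count of 36 was 21 when replicate 3 of control 0 hr was left out and 21 when only the 2 groups entered the fit.

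Between 6 and 24 hr most members called in control cells were higher at the later time. Of 79 members, 32 were higher and 2 lower at 24 than at 6 hr, against 15% of all genes higher and 13.3% lower. Higher were 17 of 36 members of complex I, 1 of 4 of complex II (Sdhb), 1 of 7 of complex III, 5 of 14 of complex IV and 8 of 18 of complex V. Ndufa13, an accessory subunit also known as GRIM-19, had 91.1, 80.4, 97.1, 90.9 and 107 FPKM at 6 hr and 144, 169, 153 and 281 at 24 hr, a log2 difference of 0.94 ± 0.15 (SE, adjusted p = 6.55e-05). At 0 hr it had 129, 126 and 104 FPKM, so the 24 hr libraries lay above those of both earlier times. Sdhb had 166, 158, 179, 187 and 226 FPKM at 6 hr and 232, 288, 222 and 416 at 24 hr, a log2 difference of 0.62 ± 0.15 (SE, adjusted p = 0.00394), where replicate 4 was far above the other 3 and the groups overlapped. The rest of the named members were Ndufb10 (0.68), Ndufs5 (0.68), Ndufb8 (0.67), Ndufa7 (0.66), Ndufa8 (0.65), Ndufb3 (0.63) and Ndufa6 (0.61). Lower at 24 than at 6 hr were Uqcrfs1 (-0.39) and Ndufs4 (-0.32). The comparisons of 24 with 0 hr and of 24 with 6 hr share the control libraries of 24 hr. At 24 against 6 hr 4 of 6 neutrophil and 7 of 12 microglial markers were higher and 3 of 4 monocyte markers lower, the neutrophil sum was 874 to 5626 FPKM at 6 hr and 6268 to 15120 FPKM at 24 hr without overlap, and their part was not tested. The count of 34 was 23 without the library of each group with the highest neutrophil sum and 20 when only the 2 groups entered the fit.

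**Figure D2:**
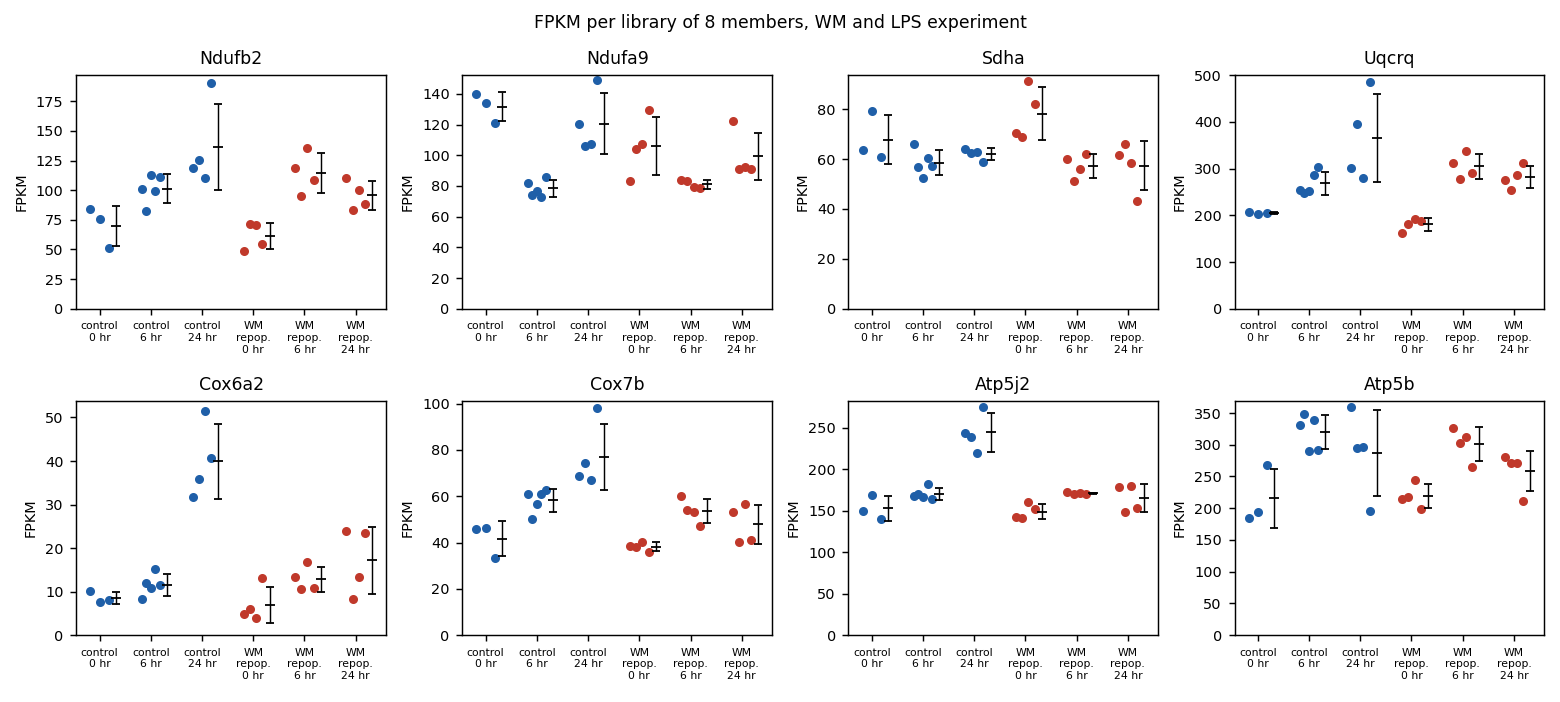
FPKM of 8 members in every library of the WM experiment; points are libraries, and the bar with whiskers is the group mean ± SD. Control cells are in blue and WM repopulating cells in red, and Cox6a2 reached 31.7 to 51.4 FPKM in control cells at 24 hr against 8.32 to 23.98 in WM repopulating cells.

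In WM repopulating cells too, more members rose than fell within 6 hr of LPS. Of 79 members, 24 rose and 6 fell from 0 to 6 hr, against 19.3% of all genes higher and 19.5% lower, with a median of 0.22. Complex I had 8 higher and 2 lower, complex III 2 higher, complex IV 7 higher and 1 lower and complex V 7 higher and 2 lower, while the 1 complex II member called, Sdha, was lower. Of the members called higher, 14 were called higher in control cells at 6 hr too, which is 82.4% of the control list of 17 and 58.3% of the WM repopulating list of 24. Over all tested genes called higher, the shared part was 70.04% of the control and 77.7% of the WM repopulating list. Of those called lower 5 were shared, Atp5s, Atp5sl, Cox7a2l, Ndufa9 and Ndufc2, which is 50% of the control list of 10 and 83.3% of the WM repopulating list of 6, against 69.3% and 74.9% over all tested genes called lower. No member was called in opposite directions, and these 2 comparisons have no library in common. At 6 hr 9 of 12 microglial and 5 of 6 neutrophil markers were also lower and 3 of 4 monocyte markers higher, and their part was not tested.

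Uqcrq had 162, 182, 193 and 188 FPKM in WM repopulating cells at 0 hr and 313, 277, 337 and 291 at 6 hr, a log2 difference of 0.75 ± 0.14 (SE, adjusted p = 0.000124). Sdha had 70.3, 68.8, 91.4 and 82.2 FPKM at 0 hr and 60.0, 51.0, 55.9 and 61.9 at 6 hr, a log2 difference of -0.44 ± 0.13 (SE, adjusted p = 0.0100). Both pairs of groups were fully separated. Cox8b rose from 4.48, 1.74, 1.42 and 0.707 FPKM to 2.82, 10.2, 17.1 and 8.88, a log2 difference of 1.74 ± 0.56 (SE, adjusted p = 0.0160), and had 0, 1.10, 0 and 0.331 FPKM at 24 hr. Those groups at 0 and 6 hr overlapped, and a median of 3.5 reads per library over the experiment lay behind this muscle isoform. With Cox8b and Uqcrq, the 10 greatest of the 24 called higher were Cox6a2 (0.90), Ndufb2 (0.89), Atp5g1 (0.89), Ndufa12 (0.69), Cox5b (0.68), Atp5g3 (0.66), Ndufb6 (0.61) and Ndufa4 (0.59). The members that fell besides Sdha were Atp5s (-0.65), Cox7a2l (-0.61), Atp5sl (-0.47), Ndufa9 (-0.36) and Ndufc2 (-0.32). The count of 30 was 19 without replicate 1 of WM repopulating 6 hr, at most 26 when any 1 library was left out, and 17 without the library of each group with the highest neutrophil sum.

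By 24 hr fewer members of WM repopulating cells stood apart from 0 hr than at 6 hr. The share of all genes called fell too, from 38.8% at 6 hr to 18.8% at 24 hr. Called were 9 higher (11.4%) and 2 lower of 79, against 10.5% of all genes higher and 8.29% lower, with a median of 0.14. The count of members higher was thus near the share of all genes. Lower at 24 hr were also 9 of 12 microglial, 4 of 5 choroid plexus and 4 of 4 T cell markers, whose part was not tested. The 9 higher were Cox6a2 (1.204), Ndufa12 (0.77), Atp5g1 (0.72), Ndufb2 (0.64), Uqcrq (0.63), Cox5b (0.63), Atp5g3 (0.56), Cox5a (0.53) and Ndufa4 (0.47). All 9 were called higher in control cells at 24 hr, where they made up 25% of the 36. Over all tested genes called higher at 24 hr the shared part was 49.1% of the control and 56.4% of the WM repopulating list. Lower were Cox7a2l (-0.55) and Sdha, which had 61.7, 66.2, 58.4 and 43.2 FPKM at 24 hr (-0.45). Between 6 and 24 hr no member rose and 3 fell, against 8.19% of all genes higher and 7.50% lower, and these were Cox8b (-2.85), Atp5g2 (-0.59, 2 to 9 reads per library) and Ndufs4 (-0.38). The count of 11 was 7, and that of 3 was 1, without the library of each group with the highest neutrophil sum, and the count of 3 was also 1 without replicate 2 of WM repopulating 6 hr or without replicate 3 or 4 of WM repopulating 24 hr.

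**Figure D3:**
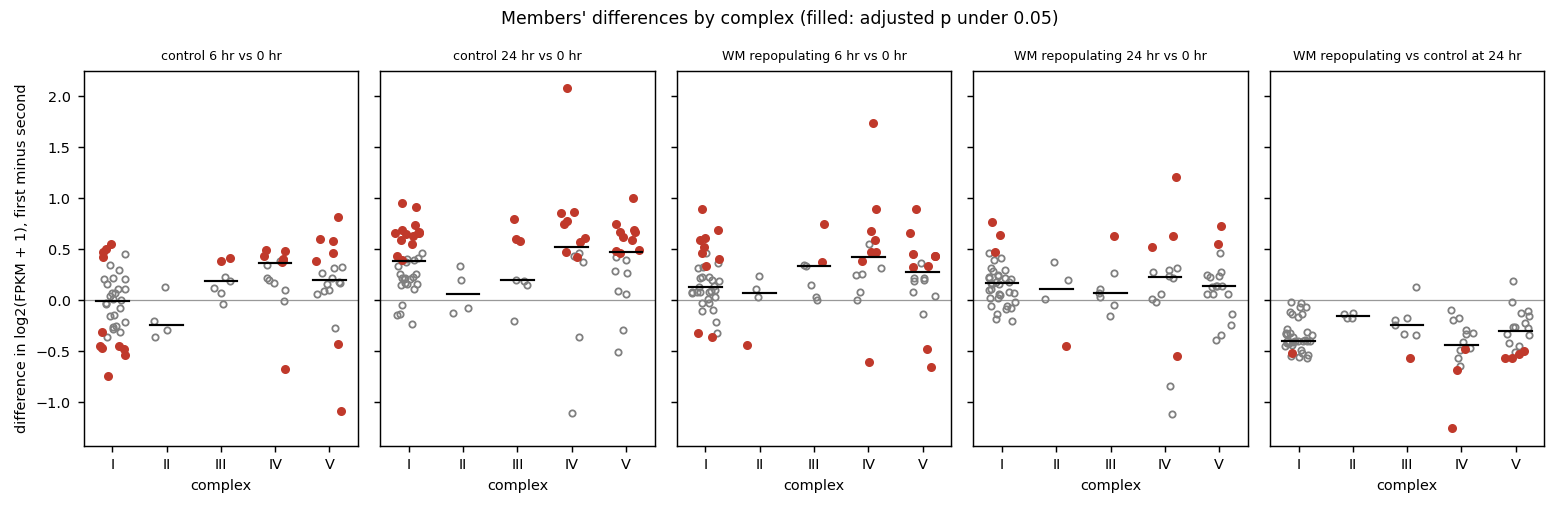
Difference in log2(FPKM + 1) of each member by complex in 5 comparisons of the WM experiment, first group minus second; filled red points have an adjusted p under 0.05 and the bar is the median of the complex. The medians of all members were 0.41 for control cells at 24 against 0 hr and -0.34 for WM repopulating against control cells at 24 hr.

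Whether repopulating cells differ from control cells at rest was the next comparison. At 0 hr no member was called, against 1.21% of all tested genes, and the median was -0.08. An unadjusted p under 0.05 was found for 6 members (7.59%) against 11.9% of all genes. The smallest p belonged to Ndufs8 (-0.40, adjusted p = 0.131), a core subunit of complex I. At 6 hr no member was called either, against 0.323% of all genes, and the median was 0.06. At an unadjusted p under 0.05 there were 2 members (2.53%) against 9.18% of all genes. Cox8b (1.45, adjusted p = 0.3304) and Ndufa8 (0.33, adjusted p = 0.520) had the smallest p.

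At 24 hr members were called between the groups, in a number that moved with the processing, as given below. Of 79 members, 9 were lower and none was higher in WM repopulating cells, against 2.29% of all genes lower and 1.68% higher, and 77 members had a difference below 0, with a median of -0.34. The members called were 4 of complex V (Atp5j2, Atp5e, Atp5h, Atp5o), 3 of complex IV (Cox6a2, Cox7b, Cox6c), 1 of complex III (Uqcrb) and 1 of complex I (Ndufb11). The mean log2 level over the members was 5.93 ± 0.10 (SD, n = 4) in WM repopulating and 6.26 ± 0.15 (n = 4) in control cells at 24 hr, with every WM repopulating library below every control library.

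Atp5j2, the f subunit of the membrane part of ATP synthase, had 179, 149, 179.7 and 153 FPKM in WM repopulating and 244, 239, 219 and 275 in control cells at 24 hr, a log2 difference of -0.56 ± 0.10 (SE, adjusted p = 0.00171). Cox7b, a small subunit of complex IV, had 53.3, 40.1, 56.7 and 41.1 FPKM against 68.8, 74.3, 67.2 and 98.0, a log2 difference of -0.68 ± 0.14 (SE, adjusted p = 0.00663). Neither pair of groups overlapped, and control replicate 4 was the highest library for each. Ndufb11, an accessory subunit of complex I, had 72.3, 58.6, 74.5 and 66.1 FPKM against 96.0, 97.0, 80.5 and 119, a log2 difference of -0.52 ± 0.12 (SE, adjusted p = 0.0142). Cox6a2 had 23.98, 8.32, 13.2 and 23.4 FPKM against the control values above, a log2 difference of -1.26 ± 0.29 (SE, adjusted p = 0.0147). In these 2 members as well the highest WM repopulating library stayed below the lowest control library.

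Atp5e had 268 ± 38.6 (SD, n = 4) against 378 ± 42.6 (SD, n = 4) FPKM (-0.50, adjusted p = 0.0133). Uqcrb (-0.57), Atp5o (-0.57), Atp5h (-0.53) and Cox6c (-0.47) had adjusted p values of 0.0333, 0.0405, 0.0341 and 0.0428. Of the 9, the groups of Atp5h alone overlapped. Neutrophil marker sums were 6268 to 15120 FPKM in control and 3121 to 7095 FPKM in WM repopulating cells at 24 hr, and leaving out the library of each group with the highest sum left 1 member called. The count of 9 was also 0 when only the 2 groups entered the fit, 2 without replicate 2 of WM repopulating 24 hr, 5 without replicate 2 or 4 of control 24 hr or replicate 4 of WM repopulating 24 hr, 14 without replicate 3 of control 24 hr, 15 with quantile normalisation and 16 with centring on the median.

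Whether the LPS response itself differed between the cells was tested as an interaction. At 24 hr no member was called, against 0.0867% of all genes, and the median was -0.24. An unadjusted p under 0.05 was found for 12 members (15.2%) against 8.71% of all genes. Atp5j2 (-0.53, adjusted p = 0.201) and Cox6c (-0.63, adjusted p = 0.259) had the smallest p. At 6 hr no member was called, against 0.0237% of all genes, and 4 (5.06%) had an unadjusted p under 0.05 against 7.198% of all genes. Ndufa7 (0.53, adjusted p = 0.648) and Ndufs8 (0.39, adjusted p = 0.649) came first. A difference in response was thus not shown for any single member. The test works gene by gene and does not compare the numbers of members called in control and WM repopulating cells. The comparison between cells at 24 hr and those over time share the control libraries of 24 hr.

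**Figure D4:**
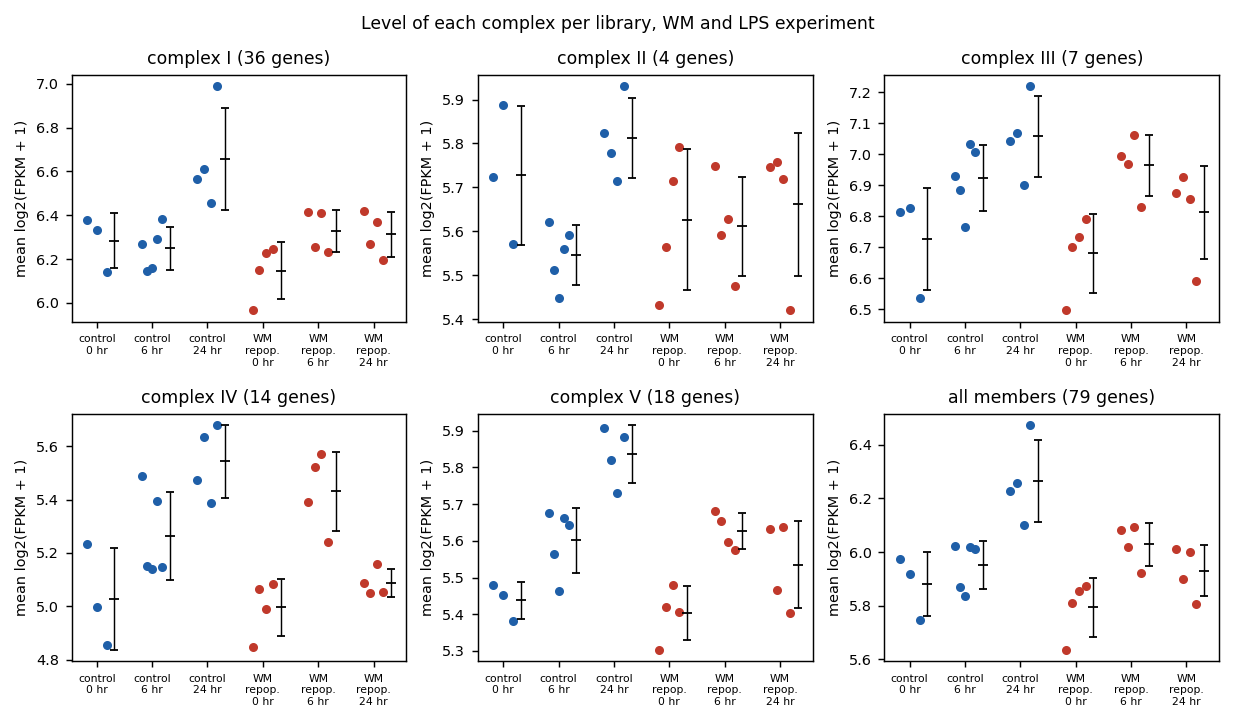
Mean log2(FPKM + 1) of the members of each complex, and of all members, in every library of the WM experiment; points are libraries, and the bar with whiskers is the group mean ± SD. In complex IV the 4 WM repopulating libraries at 24 hr lay between 5.05 and 5.16, all below the control libraries at 24 hr, which lay between 5.39 and 5.68.

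Other genes of mitochondrial metabolism give the setting, and their counts are read against the shares of all genes called in the same comparisons, which were 21.4% higher and 21.1% lower at 6 hr and 12.1% and 9.23% at 24 hr in control cells and 19.3% and 10.5% higher in WM repopulating cells. Complex subunits encoded in mitochondrial DNA were called higher in 3 of 8 at 6 hr and 6 of 8 at 24 hr in control cells (medians 0.45 and 0.78), in 2 and 1 of 8 in WM repopulating cells, the latter near the share of all genes, and in none of 8 between the cells at 24 hr (median -0.32). Factors that assemble the complexes had 7 higher and 9 lower of 43 at 6 hr in control cells, not above the shares of all genes, with a median of 0.01, and 3 higher and 0 lower at 24 hr. Enzymes of the citric acid cycle and of the pyruvate dehydrogenase complex that feeds it had 3 higher and 1 lower of 16 at both times in control cells, and the 3 higher were Idh3a and Mdh2 of the cycle and Pdha1 of pyruvate dehydrogenase. Subunits of the mitochondrial ribosome had 25 higher and 4 lower of 77 at 6 hr and 16 higher at 24 hr, and those of the cytosolic ribosome 60 and 53 higher of 78 with none lower (medians 0.69 and 0.65). Between the cells at 24 hr, 8 of 78 cytosolic ribosome genes were lower and 1 higher in WM repopulating cells (median -0.28). Of 12 respiratory genes that the symbol rule leaves out, 5 were higher and 2 lower in control cells at 6 hr. Cyc1, the cytochrome c1 of complex III, was higher, with a log2 difference of 0.65 (adjusted p = 0.000113). The 2 lower were Higd2a (-1.62, adjusted p = 1.62e-11) and Atpif1 (-0.47, adjusted p = 0.0155). At 24 hr Higd2a was again lower than at 0 hr (-0.86, adjusted p = 1.99e-06) and Atpif1 was higher (0.62, adjusted p = 0.00673). Regulators of mitochondrial gene expression had 3 higher and none lower of 13 at 6 hr and 1 higher and 1 lower at 24 hr. These counts were near the shares of all genes, except that 21.1% of all genes were lower at 6 hr. Pprc1, a co-activator of NRF1, was higher at both times (1.32 and 0.66 on the log2 scale), and Nrf1 itself was lower at 24 hr (-0.60, adjusted p = 0.0307).

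In SVZ tissue no member was called in any of 3 comparisons. After 14 days of PLX3397, with most microglial transcript gone, the median difference from control was -0.03 and 1.26% of all 14151 tested genes were called. At an unadjusted p under 0.05 there was 1 member (1.27%) against 6.12% of all genes. After 5 days of recovery the median difference from control was 0.09, with 63 of 79 members above 0, and 1.27% of all genes were called. An unadjusted p under 0.05 was found for 11 members (13.9%) against 16.6% of all genes. Against 14 days of PLX3397 the median was 0.12, with 71 of 79 above 0, and 0.325% of all genes were called. Here 15 members (18.99%) against 16.5% of all genes had an unadjusted p under 0.05. With quantile normalisation the median against control was 0.02 and that over all genes 0.03, and the median against 14 days of PLX3397 was 0.06. Any pair of these comparisons shares the libraries of 1 group.

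Ndufb8, an accessory subunit of complex I, had 501, 543, 527, 608 and 524 FPKM in control SVZ, 540.0, 599.98, 564, 595 and 588 after 14 days of PLX3397 and 652, 631, 527, 819.5 and 989 after 5 days of recovery. Replicates 4 and 5 of the recovery group were high, its replicate 3 lay within the control range, and the comparison with control gave a log2 difference of 0.39 ± 0.13 (SE, adjusted p = 0.186). Sdhb had 345, 346, 362, 339.6 and 362 FPKM in control SVZ and 438, 361, 355, 509 and 544 after 5 days of recovery, a log2 difference of 0.31 ± 0.11 (SE, adjusted p = 0.189). The same 2 recovery libraries were the highest, and replicates 2 and 3 were within the control range. Against 14 days of PLX3397, Ndufb10 (0.31, adjusted p = 0.198) and Sdhb (0.30, adjusted p = 0.214) had the smallest p. After 14 days of PLX3397 they were Atp5g2, at 1.204, 0.728, 2.40, 1.46 and 2.52 FPKM against 1.67, 0.676, 0.258, 0.267 and 1.46 in control (0.54, adjusted p = 0.750), and Ndufs4 (-0.14, adjusted p = 0.914). Atp5g2 had 2 to 20 reads per SVZ library.

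The mean log2 level of all SVZ members was 7.27 ± 0.11 (SD, n = 5) in control, 7.23 ± 0.04 after 14 days of PLX3397 and 7.37 ± 0.14 after 5 days of recovery, and the groups overlapped. Control replicate 1, the library with the high choroid plexus sum, had the highest member level of its group, 7.42. Without it no member was called in either comparison with control, and the medians were -0.01 and 0.11.

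In GLOBAL repopulation against its control no member was called, and no gene of the 16651 tested was (0%), with 3 members (3.66%) and 1504 genes (9.03%) at an unadjusted p under 0.05. The median difference over 82 members was 0.05, which turned to -0.03 with quantile normalisation, and the mean log2 level was 5.44 ± 0.07 (SD, n = 3) in repopulated and 5.405 ± 0.14 (n = 4) in control cells. Cox6b2 had 2.44, 1.85 and 0 FPKM in repopulated and 5.85, 2.25, 4.40 and 5.11 in control cells, a log2 difference of -1.28 ± 0.41 (SE, adjusted p = 0.417). Ndufb7, an accessory subunit of complex I, had 64.4, 69.8 and 73.2 against 106, 92.7, 69.9 and 93.1 FPKM, a log2 difference of -0.37 ± 0.15 (SE, adjusted p = 0.534). In both, 1 control library lay within the range of the repopulated cells.

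**Figure D5:**
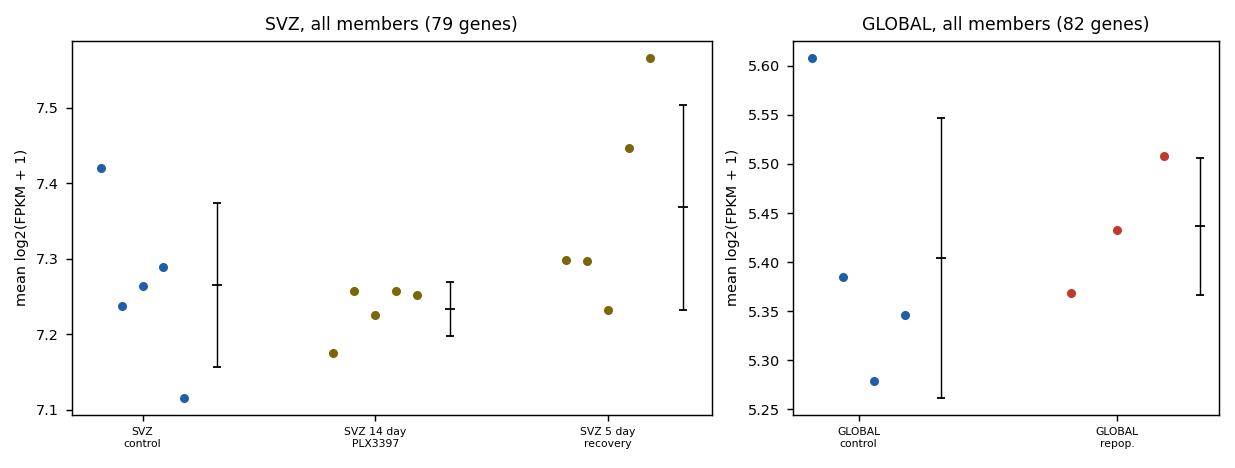
Mean log2(FPKM + 1) of all members in every library of the SVZ and the GLOBAL experiment; points are libraries, and the bar with whiskers is the group mean ± SD. After 5 days of recovery the SVZ libraries ran from 7.23 to 7.57, control SVZ libraries from 7.12 to 7.42, and the GLOBAL groups overlapped.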

How the data were processed

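RNA-seq was measured in 46 mouse libraries of 3 experiments. The authors aligned reads to mm10 with STAR, counted genes with featureCounts and deposited FPKM per gene and library, 1 table per experiment, each normalised on its own, so no test crosses tables. Whole reads could be recovered from the steps of the low FPKM values for 99.9% of genes and gave the depths. These genes held 90.0%, 86.5% and 87.6% of all FPKM in the SVZ, WM and GLOBAL experiments, so the depths leave out reads of the other genes. The labels and the study's methods describe the library protocol differently, and which applies to which library is not settled here. In the SVZ experiment, 25 symbols stored as dates were restored.

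Genes with an FPKM of at least 1 in at least 3 libraries were tested with limma 3.58.1 (R 4.3.3) on log2(FPKM + 1), with the trend option, all groups of a table in 1 fit, two-sided, and Benjamini-Hochberg adjustment over all genes tested. A gene was called at an adjusted p under 0.05. On this scale, differences of low genes come out smaller than their linear change. Libraries are individual mice by the study's account, and p-values measure the spread between these libraries. The test was checked on simulated data. Promoters came from RefSeq (GRCm38.p6), and shared 43-base windows from GENCODE transcripts.

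The members and gene lists were chosen with earlier results of these data known. Named in each comparison were up to 10 members called higher and 10 called lower with the greatest absolute difference or, where none was called, the 2 with the smallest p. The highest member of each complex, the complex II subunits, core subunits and isoform sets were named as well. The values of 1 member that this rule names are not reported here. Alternatives were another pseudocount, no filter, quantile normalisation, centring on the median, a fit of the compared groups alone, a replicate block, and each library left out. Added after seeing the data were voom on the recovered reads and leaving out the library of each group with the highest neutrophil sum.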

Additional observations from a re-analysis of the deposited data

Results flagged for a closer look

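Single libraries stood apart from their group by a test of the gap to the nearest other library (Dixon, 95% critical value) in 3 of 54 groups of complex levels and 2 of 91 groups of named members, where chance gives about 1 in 20. In SVZ tissue after 5 days of recovery, replicate 5 was the highest library for complex II, at a mean log2 level of 7.09 against 6.76 in the next, and for complex V, at 7.05 against 6.89. In WM repopulating cells at 24 hr, replicate 4 was the lowest for complex II, at 5.42 against 5.72, and for Atp5b, at 211 FPKM against 271. Ndufa9 was highest in replicate 1 of the same group, at 123 FPKM against 92.1.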

How the results depend on the processing

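Counts of members called moved with the processing. For WM repopulating against control cells at 24 hr the 9 became 15 with quantile normalisation, 16 with centring, 5 with a replicate block, 0 with the compared groups alone and 1 without the highest-neutrophil libraries, with 2 to 14 when 1 library was left out; the cause was not tested. Control cells gave 27 at 6 against 0 hr, 13 to 26 with a library left out and 17 without the highest-neutrophil libraries. Their 36 at 24 against 0 hr became 21 with the compared groups alone (21 to 37 with a library left out), and their 34 at 24 against 6 hr became 20 (26 to 35). In WM repopulating cells the 30, 11 and 3 became 17, 7 and 1 without the highest-neutrophil libraries (19 to 26, 9 to 11 and 1 to 3 with a library left out). With voom the 7 counts were 10, 25, 35, 32, 27, 10 and 2. The SVZ counts were 0 to 1 with a library left out (without replicate 3 of 5 day recovery, or replicate 5 of control), and 2 for 5 day recovery against control without the highest-neutrophil libraries. Other counts of 0 stayed 0 in all alternatives run. The correlation of deviations between same-numbered libraries had a median of 0.05 in the SVZ (15 pairs, -0.15 to 0.49), -0.001 in the WM (55 pairs, -0.19 to 0.27) and 0.10 in the GLOBAL experiment (3 pairs, 0.06 to 0.14). Not every pair passed 0.1 in any experiment, so replicate numbers were taken only to name libraries, and the counts with the block were 5, 19, 35, 33, 26, 10 and 2. Of 97 named results 53 kept their call in all alternatives, 43 lost it in at least 1, 1 gained it and none reversed. Members with few reads, such as Cox8b and Atp5g2, are limited by depth.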

Other observations

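Atp5g2, which encodes the same mature ring subunit of ATP synthase as Atp5g1 and Atp5g3, was near the detection limit in 2 of the 3 experiments, at a mean of 1.36 FPKM in SVZ tissue and 1.04 FPKM in the WM experiment, and at 93.8 ± 7.05 (SD, n = 4) in control and 103 ± 2.88 (n = 3) in repopulated cells of the GLOBAL experiment. It had 2 to 20, 2 to 9 and 256 to 458 reads per library in these experiments. Of its 43-base windows 39.0% occur in other transcripts, and the tables were made separately, so these levels can be set side by side but not compared.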
